A study of Homo sapiens with 12 samples.

Results

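The lysosomal genes described here were 46 genes of acid hydrolases, their cofactors, lysosomal membrane proteins, subunits of the vacuolar proton pump and 3 genes tied to their regulation and to autophagy, chosen by name from the deposited count table. They were 46 of 26938 genes with a count, and all 46 had enough counts to enter the test, in which 16838 genes took part. RNA was sequenced from 12 cultures of clear cell renal cell carcinoma cells to ask how depletion of the clock factor BMAL1 changes transcripts with and without VHL. The cells were 786O, a carcinoma line that lacks functional VHL, and WT8, a derivative of 786O that expresses wildtype VHL. Each line carried either shControl, a scrambled hairpin, or shBMAL1, a hairpin against the BMAL1 transcript. The 4 groups, 786O shControl, 786O shBMAL1, WT8 shControl and WT8 shBMAL1, had 3 biological replicates each. All 12 cultures had been infected with lentivirus in a pLKO.1 vector and selected and kept in puromycin, so the controls shared vector and drug with the depleted cells. The labels do not say which hairpin against BMAL1 was used, and WT8 differs from 786O in its own history as well as in VHL. The labels name the replicates as biological without saying that they came from separate infections, and p-values measure the spread between these samples.

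Lysosomes are acidic organelles in which hydrolases break down proteins, glycans, glycosaminoglycans and lipids delivered by endocytosis and autophagy. The acid pH is set by the vacuolar ATPase, in which a cytosolic V1 sector hydrolyses ATP and a membrane V0 sector moves protons. Many of these genes are targets of TFEB and TFE3, factors of the MiT family that bind the E-box CACGTG, the hexamer that CLOCK and BMAL1 also bind.

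Library totals lay between 33182025 and 36477509 counts. The transcript of BMAL1, listed as ARNTL, was 13.5, 10.8 and 12.03 CPM (counts scaled to one library size with TMM factors) in 786O shControl and 4.08, 3.68 and 4.05 in 786O shBMAL1. In WT8 it was 9.03, 10.3 and 8.40 CPM with shControl and 1.49, 1.93 and 1.55 with shBMAL1, so each depleted group lay below its control (3.08-fold lower in 786O and 5.57-fold lower in WT8). VHL stood at 17.6 to 21.3 CPM in the 786O libraries, at 1006, 916 and 1020.0 in WT8 shControl and at 661, 631 and 648 in WT8 shBMAL1, a change within WT8 of -0.60 ± 0.05 (log2 ± SE). The 5 renal epithelial tumour markers (PAX8, PAX2, KRT8, KRT18 and CDH2) summed to 1705 to 1830 CPM in 786O shControl, 2035 to 2044 in 786O shBMAL1, and in WT8 to 2466 to 2523 with shControl and 1746 to 1847 with shBMAL1. Leukocyte and macrophage markers summed to 1.75 to 7.47 CPM in any library, with CD3E at 0 throughout and PTPRC at 0 in all but 1 library, where it had 1 count. The 3 endothelial markers reached at most 1.47 CPM and the 4 fibroblast markers 9.16 CPM in any library. Mitochondrially encoded genes took 3.42% to 4.30% of the counts in 786O and 4.61% to 5.69% in WT8.

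The promoter sequences of 31 of the 46 members were in the RefSeq table used (GRCh38.p14, 250 bases before to 50 after each gene start). CACGTG, a palindrome that reads the same on both strands, was present in 9 of these 31 promoters (29.0%) and in 7.43% of all 27305 promoters of the same length. Among promoters of the wider list of other lysosomal genes described below, it was in 18 of 78 (23.1%), so the motif was not particular to the members. The longer palindrome TCACGTGA, which contains CACGTG, was in 6 of the 31 (19.4%), in 8 of those 78 (10.3%) and in 1.04% of all promoters. The 9 promoters were those of LAMP1, CLN3, MCOLN1, CTSA, CTSD, CTSF, GAA, NEU1 and ATP6V0D1. Those with TCACGTGA were LAMP1, CLN3, MCOLN1, CTSA, GAA and ATP6V0D1. In CLN3 it lies at a copy whose window runs past the gene start and is not shown. The 30 bases around the motif are shown for 8 of them because GAA, NEU1, CTSD and MCOLN1 fell by more than 1.5-fold with shBMAL1 in WT8 alone while ATP6V0D1 fell in both lines and CLN3 rose, so that one motif stood beside different changes. Capitals mark CACGTG, and positions are from exact matches of these bases to GRCh37. Each window lies upstream of the gene start in the RefSeq table. The GRCh37 annotation used for gene positions starts CLN3, CTSA and CTSD farther upstream and GAA between its 2 windows, so that the windows of the first 3 and the second window of GAA fall within those annotated genes.
GAA (chr17:78075292-78075321, plus strand): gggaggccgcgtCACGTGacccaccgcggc
GAA (chr17:78075337-78075366, plus strand): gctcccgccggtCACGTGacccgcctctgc
NEU1 (chr6:31830707-31830736, minus strand): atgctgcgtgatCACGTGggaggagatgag
CTSD (chr11:1785187-1785216, minus strand): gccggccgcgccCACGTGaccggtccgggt
MCOLN1 (chr19:7587457-7587486, plus strand): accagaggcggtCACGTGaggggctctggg
LAMP1 (chr13:113951514-113951543, plus strand): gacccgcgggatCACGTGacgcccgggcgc
CTSA (chr20:44519937-44519966, plus strand): ggcgccggagttCACGTGactcgtacacat
ATP6V0D1 (chr16:67515102-67515131, minus strand): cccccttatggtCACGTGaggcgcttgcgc
CLN3 (chr16:28503408-28503437, minus strand): aaaacctctgagCACGTGatgggggaacac
LAMP1 held 6 copies of CACGTG in its 300 bases, GAA, CLN3, MCOLN1, CTSA and CTSF held 2 each, and CTSD, NEU1 and ATP6V0D1 held 1 each.

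Per kilobase of exon, the members spanned a wide range of levels. In 786O shControl, CTSD, the aspartic protease cathepsin D, was the most abundant member at 1032 ± 72.8 RPKM (CPM per kilobase of the canonical transcript, mean ± SD, n = 3). PSAP, the precursor of the saposins that assist sphingolipid hydrolases, followed at 564 ± 3.85 and CTSZ, a cysteine carboxypeptidase, at 531 ± 12.4 RPKM. The difference between PSAP and CTSZ exceeded the sum of their SDs in 786O shControl, and in WT8 shControl it was about as large as that sum. In WT8 shControl the 3 genes changed order, with CTSZ at 946 ± 2.91, PSAP at 934 ± 9.04 and CTSD at 649.6 ± 18.9 RPKM. At the low end, TFEB had 2.69 ± 0.770 RPKM in 786O shControl, CTSK 0.747 ± 0.119 and CTSF 0.201 ± 0.0671.

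With shBMAL1 the lysosomal genes moved in mixed directions in 786O and mostly downward in WT8. In WT8, 35 of the 46 members were lower and 9 higher, with GAA, NEU1, CTSB, CTSD, IDS and ATP6V1A each down by over 2-fold and SGSH and SMPD1 up by over 2-fold. In 786O, 16 were lower and 12 higher, and most of these changes were small. A gene was called where the adjusted p of edgeR's quasi-likelihood test (Benjamini-Hochberg over all 16838 genes) was under 0.1. In 786O, 28 members were called (60.9%) against 48.9% of all genes tested. Higher calls made up 26.1% of members against 24.5% of genes, and lower calls 34.8% against 24.4%. The median log2 change of the members was -0.03, beside 0.00 for all genes. In WT8, 44 members were called (95.7%) against 69.8% of all genes, with 76.1% lower against 36.9% of genes and 19.6% higher against 32.9%. There the members' median was -0.42, beside -0.04 for all genes. When a change over 1.5-fold was also required, 6 of the 46 members remained in 786O (2 higher, 4 lower), a share slightly below the 14.3% of genes. In WT8, 21 of the 46 remained (3 higher, 18 lower), a share above the 35.9% of genes. The median of the members' mean counts was 3340.8 and that of all genes tested 540.4, and genes with more counts are called at smaller changes. In RNA from bulk cultures, fewer cells that express a gene and less RNA per cell cannot be told apart. VHL and 4 of the 5 renal epithelial markers were also lower in WT8 shBMAL1 than in WT8 shControl, while CDH2 was higher (0.22 ± 0.05, adjusted p = 8.47e-05), and their part in the fall of the lysosomal genes was not tested.

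**Figure D1:**
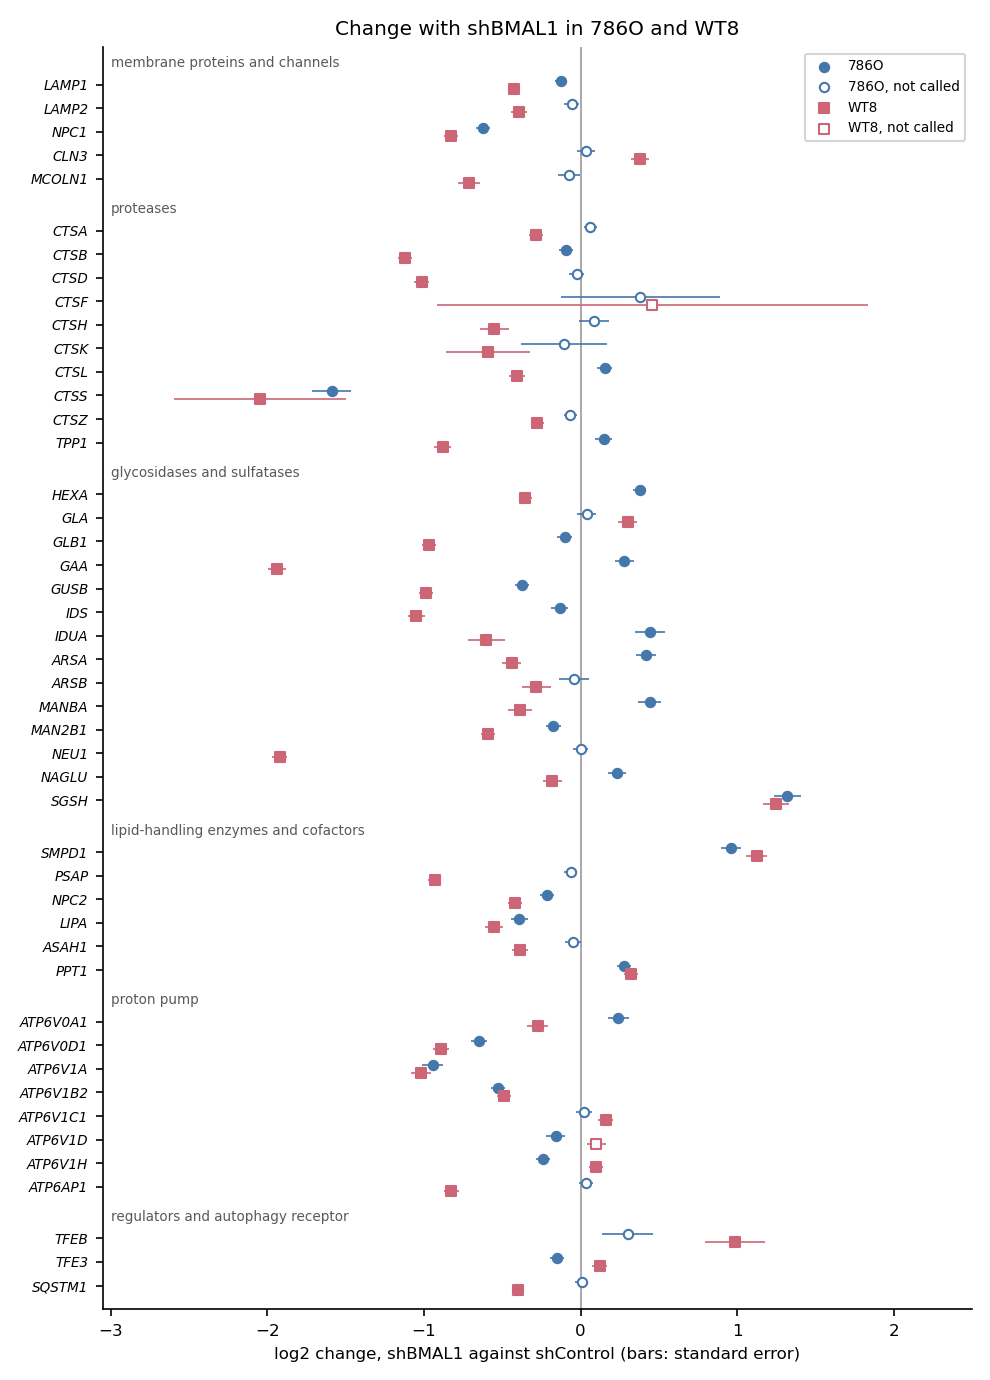
Log2 change with shBMAL1 (horizontal axis, ± SE) of each of the 46 lysosomal genes, grouped by role, in 786O (circles) and WT8 (squares), with open symbols for genes not called. In WT8 35 members lie at called values below 0 and 9 above it, whereas in 786O 16 lie below and 12 above.

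Side by side, 13 members were lower in both lines, 3 were higher in both (SGSH, SMPD1 and PPT1), 9 were higher in 786O and lower in WT8, and 2 (ATP6V1H and TFE3) were lower in 786O and higher in WT8. A further 13 were called lower in WT8 and not called in 786O. The shares of all genes with these joint patterns were not computed. As 48.9% of all genes were called in 786O and 69.8% in WT8, these counts do not show whether any pattern is unusual. The change in WT8 minus that in 786O, the interaction, was tested in the same fit. It was called for 37 members (80.4%) against 56.0% of all genes, of which 30 were negative (65.2% of members against 28.6% of genes) and 7 positive (15.2% against 27.4%), and 17 were called with a difference over 1.5-fold (16 negative, 1 positive) against 29.3% of genes. The median interaction of the members was -0.38, beside -0.03 for all genes.

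Counts by role, here and below, are read against the shares of all genes. These were 24.4% lower and 24.5% higher in 786O, and 36.9% lower and 32.9% higher in WT8. Among the 5 membrane proteins and channels, 4 fell and CLN3 rose in WT8, and LAMP1 and NPC1 fell in 786O. LAMP1 (chr13:113951554-113977987, plus strand, GRCh37), one of the glycoproteins that line the lysosomal membrane, had 395, 382 and 395 CPM in 786O shControl, 366, 346 and 361 in 786O shBMAL1, and in WT8 492, 488 and 488 with shControl and 363, 361 and 369.8 with shBMAL1. Both depleted groups lay wholly below their controls, by -0.13 ± 0.04, adjusted p = 0.0103 in 786O and -0.42 ± 0.04, adjusted p = 1.45e-11 in WT8 (log2 change ± SE), and the interaction was -0.30 ± 0.06, adjusted p = 3.24e-05. NPC1, which exports cholesterol from the lysosome, was at 315, 323 and 306 CPM in 786O shControl and 204, 194 and 215 in 786O shBMAL1, and at 206, 206 and 204 in WT8 shControl and 117, 118 and 113 in WT8 shBMAL1. It fell without overlap in both lines, 1.54-fold in 786O (adjusted p = 2.91e-14) and 1.77-fold in WT8 (adjusted p = 2.85e-18). CLN3, a membrane protein whose loss causes juvenile Batten disease, had 48.1, 48.3 and 46.4 CPM in 786O shControl and 48.7, 47.9 and 49.7 in 786O shBMAL1, values that overlapped. In WT8 it rose from 37.4, 34.8 and 34.2 to 47.4, 44.1 and 47.1 CPM (0.38 ± 0.06, adjusted p = 7.88e-07), with an interaction of 0.35 ± 0.08, adjusted p = 0.000691. MCOLN1, the calcium channel TRPML1, was not called in 786O (-0.08 ± 0.07, adjusted p = 0.422) and fell 1.64-fold in WT8 (adjusted p = 5.52e-11). LAMP2 was likewise called in WT8 (-0.39 ± 0.05, adjusted p = 1.14e-08) and not in 786O (-0.06 ± 0.05, adjusted p = 0.383), where leaving out 786O shControl replicate 1 gave a call at -0.12, with adjusted p between 0.0753 and 0.975 over the 12 fits that left out 1 library each.

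Of the 10 proteases, 9 were lower in WT8 shBMAL1 and the tenth, CTSF, was too rare there to judge. In 786O, CTSB and CTSS were lower, CTSL and TPP1 higher, and 6 were not called. The 20% lower and 20% higher there lay below the shares of all genes (24.4% and 24.5%). CTSD (chr11:1773982-1785803, minus strand) had 2289.5, 2069 and 2004 CPM in 786O shControl and 1977, 2144 and 2130.0 in 786O shBMAL1, 2 sets that overlapped (-0.03 ± 0.05, adjusted p = 0.704). In WT8 shControl it had 1366, 1291 and 1347 CPM and in WT8 shBMAL1 695, 662 and 627. All WT8 values lay below those of 786O, and within WT8 the depleted group lay 2.02-fold lower (adjusted p = 7.98e-20). CTSB (chr8:11700033-11727042, minus strand), a cysteine protease, was at 249, 237 and 248 CPM in 786O shControl and 228, 225 and 235 in 786O shBMAL1, and at 384, 423 and 392 in WT8 shControl and 191, 179 and 181 in WT8 shBMAL1. The fall in WT8 was 2.17-fold (adjusted p = 3.97e-22), while the small difference in 786O (-0.09 ± 0.04, adjusted p = 0.0921) lost its call in 4 of 12 fits that left out 1 library, at -0.09 to -0.08, with adjusted p between 0.0554 and 0.213 over the 12. Those 4 left out 786O shControl replicate 1 or 3 or 786O shBMAL1 replicate 1 or 2. TPP1, which removes tripeptides from protein ends, had 62.99, 59.9 and 62.02 CPM in 786O shControl and 67.3, 64.1 and 73.4 in 786O shBMAL1, and in WT8 89.1, 90.7 and 90.5 with shControl and 50.3, 46.3 and 50.2 with shBMAL1. The groups did not overlap in either line. TPP1 rose slightly in 786O (0.15 ± 0.05, adjusted p = 0.0269) and fell in WT8 (-0.88 ± 0.05, adjusted p = 1.89e-16), an interaction of -1.03 ± 0.08, adjusted p = 7.93e-14. Its call in 786O was lost without 786O shControl replicate 2 or 786O shBMAL1 replicate 3, at 0.12 and 0.09. CTSL, another cysteine protease, had the same pair of directions, 0.16 ± 0.05 in 786O and -0.41 ± 0.05 in WT8.

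CTSS, a cysteine protease best known from antigen-presenting cells, was at 20.5, 20.3 and 25.4 CPM in 786O shControl and 6.92, 7.20 and 7.87 in 786O shBMAL1. The groups did not overlap and the depleted cells lay 3.01-fold lower (adjusted p = 8.34e-13). In WT8 it was nearly absent, at 7 to 14 counts in the shControl libraries and 0 to 6 in shBMAL1, and its fitted change there, -2.05 ± 0.55, adjusted p = 0.00146, moved to -3.35 without WT8 shBMAL1 replicate 3 and lay between -3.35 and -1.48 over the 12 fits that left out 1 library. The 6 leukocyte and macrophage markers summed to 4.29 to 5.63 CPM with shControl and 6.75 to 7.47 with shBMAL1 in 786O, and in WT8 to 3.94 to 5.41 with shControl and 1.75 to 1.90 with shBMAL1. Of the 4 with enough counts, CD14, ITGAM and CD79A were higher and CSF1R lower in WT8 shControl than in 786O shControl, and with shBMAL1 in 786O CSF1R and CD14 rose, ITGAM fell and CD79A was not called. The part of such cells in the CTSS level was not tested. CTSF, a cysteine protease, had 11 to 20 counts in 786O libraries and at most 3 in any WT8 library, so no fold is given within WT8, and WT8 shControl lay at least 4.93-fold below 786O shControl when set to the floor of 3 counts per library. CTSK, the collagen-degrading cathepsin of bone, had 31 to 69 counts per library. Its lower call in WT8 (-0.59 ± 0.27, adjusted p = 0.0514) rested on overlapping groups and was lost without WT8 shControl replicate 2 or 3 or WT8 shBMAL1 replicate 1, at -0.53 to -0.42. CTSA, CTSH and CTSZ were lower in WT8 shBMAL1 (log2 -0.28, -0.55 and -0.27) and not called in 786O (log2 0.06, 0.09 and -0.07).

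The 14 glycosidases and sulfatases held the widest split between the lines. In WT8, 12 fell and only GLA and SGSH rose, whereas in 786O 7 rose, 4 fell and 3 were not called. GAA (chr17:78075332-78093680, plus strand), the acid alpha-glucosidase that degrades glycogen, had 44.7, 41.7 and 39.8 CPM in 786O shControl and 46.7, 53.7 and 52.95 in 786O shBMAL1. In WT8 it was at 201, 189 and 196 CPM with shControl and 46.4, 54.4 and 51.98 with shBMAL1. WT8 shControl thus stood apart from the other 3 groups, which lay between 39.8 and 54.4 CPM. GAA rose 1.22-fold in 786O (adjusted p = 0.00029) and fell 3.84-fold in WT8 (adjusted p = 1.38e-25), and its interaction of -2.22 ± 0.08, adjusted p = 2.9e-22 was the most negative of the 46. NEU1 (chr6:31825436-31830682, minus strand), the sialidase, had 89.2, 94.9 and 91.5 CPM in 786O shControl and 90.8, 91.7 and 93.5 in 786O shBMAL1, with overlap (0.00 ± 0.05, adjusted p = 0.996). It went from 190.4, 187 and 181 CPM in WT8 shControl to 52.1, 48.5 and 46.5 in WT8 shBMAL1, 3.79-fold lower (adjusted p = 8.22e-28). NEU1 acts in a complex with CTSA and GLB1, the beta-galactosidase. All 3 were lower in WT8 shBMAL1, GLB1 by 1.96-fold and CTSA by 1.22-fold, with negative interactions of -1.92, -0.87 and -0.35. In 786O the call of GLB1 (-0.10 ± 0.05, adjusted p = 0.0757) was lost in 4 of 12 fits that left out 1 library, those without 786O shControl replicate 1 or 3 or 786O shBMAL1 replicate 1 or 2, at -0.10 to -0.07.

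Enzymes of heparan sulfate breakdown did not move as one. SGSH (chr17:78180515-78194722, minus strand), the sulfamidase of that pathway, rose in both lines, from 10.3, 10.2 and 10.7 to 26.6, 25.6 and 25.6 CPM in 786O and from 9.27, 11.6 and 10.3 to 25.3, 25.7 and 22.9 in WT8. The groups did not overlap in either line, the rises were 2.50-fold (adjusted p = 4.67e-15) and 2.38-fold (adjusted p = 3.33e-15), and the interaction was not called (-0.07 ± 0.12, adjusted p = 0.66). IDUA, the iduronidase, had 17.6, 18.8 and 18.1 CPM in 786O shControl and 22.5, 26.7 and 24.9 in 786O shBMAL1, a rise (0.44 ± 0.10, adjusted p = 0.0003), and 8.29, 6.30 and 8.54 in WT8 shControl and 5.40, 5.56 and 4.28 in WT8 shBMAL1, a fall (-0.60 ± 0.12, adjusted p = 3.29e-05). NAGLU, the N-acetylglucosaminidase, moved the same way, 0.23 ± 0.06 in 786O and -0.18 ± 0.06 in WT8, where the call was lost without WT8 shBMAL1 replicate 3, at -0.11. IDS, the iduronate sulfatase, was lower in both lines (-0.13 ± 0.05 and -1.05 ± 0.05). Its call in 786O was lost without 786O shControl replicate 1 or 786O shBMAL1 replicate 1 or 2, at -0.12 to -0.09. GUSB, the beta-glucuronidase, fell in both, 1.29-fold in 786O and 1.98-fold in WT8.

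MANBA, a beta-mannosidase, was at 19.3, 22.3 and 21.7 CPM in 786O shControl and 29.6, 27.5 and 28.9 in 786O shBMAL1, a rise of 1.36-fold (adjusted p = 9.42e-06). It was at 26.7, 29.97 and 27.3 in WT8 shControl and 20.6, 22.2 and 21.4 in WT8 shBMAL1, a fall of 1.31-fold (adjusted p = 2.71e-05). HEXA, the alpha chain of beta-hexosaminidase, and ARSA, the sulfatase that acts on sulfatides, had the same opposed directions, 0.38 ± 0.04 and -0.35 ± 0.04 for HEXA and 0.42 ± 0.06 and -0.44 ± 0.06 for ARSA. MAN2B1, the alpha-mannosidase, fell in both lines (-0.17 ± 0.05 and -0.59 ± 0.05). GLA, the alpha-galactosidase, rose in WT8 (0.30 ± 0.06, adjusted p = 4.17e-05) and was not called in 786O (0.04 ± 0.06, adjusted p = 0.652). ARSB fell in WT8 (-0.28 ± 0.09, adjusted p = 0.00884), and its interaction was not called (-0.24 ± 0.13, adjusted p = 0.132) except without WT8 shBMAL1 replicate 2, at -0.31.

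Among the 6 lipid-handling enzymes and cofactors, SMPD1 and PPT1 rose and NPC2 and LIPA fell in both lines, while PSAP and ASAH1 fell in WT8 and were not called in 786O. PSAP (chr10:73576055-73611008, minus strand) had 1561, 1539.6 and 1547 CPM in 786O shControl and 1467, 1499.6 and 1481 in 786O shBMAL1 (-0.06 ± 0.04, adjusted p = 0.204). It dropped from 2592, 2543 and 2562 CPM in WT8 shControl to 1399, 1348 and 1288 in WT8 shBMAL1, 1.91-fold lower (adjusted p = 3.25e-21). By CPM it carried the largest difference of any member between these 2 groups. SMPD1 (chr11:6411670-6416228, plus strand), the acid sphingomyelinase, rose from 40.9, 40.9 and 39.8 to 75.4, 79.5 and 81.9 CPM in 786O and from 17.7, 15.9 and 19.7 to 38.2, 39.9 and 38.5 in WT8. The depleted WT8 cells thus had about the level of 786O shControl. The rises were 1.95-fold (adjusted p = 5.46e-15) and 2.18-fold (adjusted p = 9.28e-17), and the interaction was not called (0.16 ± 0.09, adjusted p = 0.142) except without WT8 shControl replicate 3, at 0.25. PPT1, which removes fatty acyl groups from proteins, rose by 0.28 ± 0.05 in 786O and 0.32 ± 0.05 in WT8. LIPA, the acid lipase that frees cholesterol from its esters, fell by 1.31-fold in 786O and 1.47-fold in WT8, and its interaction (-0.16 ± 0.08, adjusted p = 0.0941) lost its call in 9 of the 12 fits that left out 1 library, at -0.17 to -0.11. NPC2, the soluble partner of NPC1, was lower in both lines (-0.21 ± 0.05 and -0.42 ± 0.05), and ASAH1, the acid ceramidase, was lower in WT8 (-0.39 ± 0.05).

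**Figure D2:**
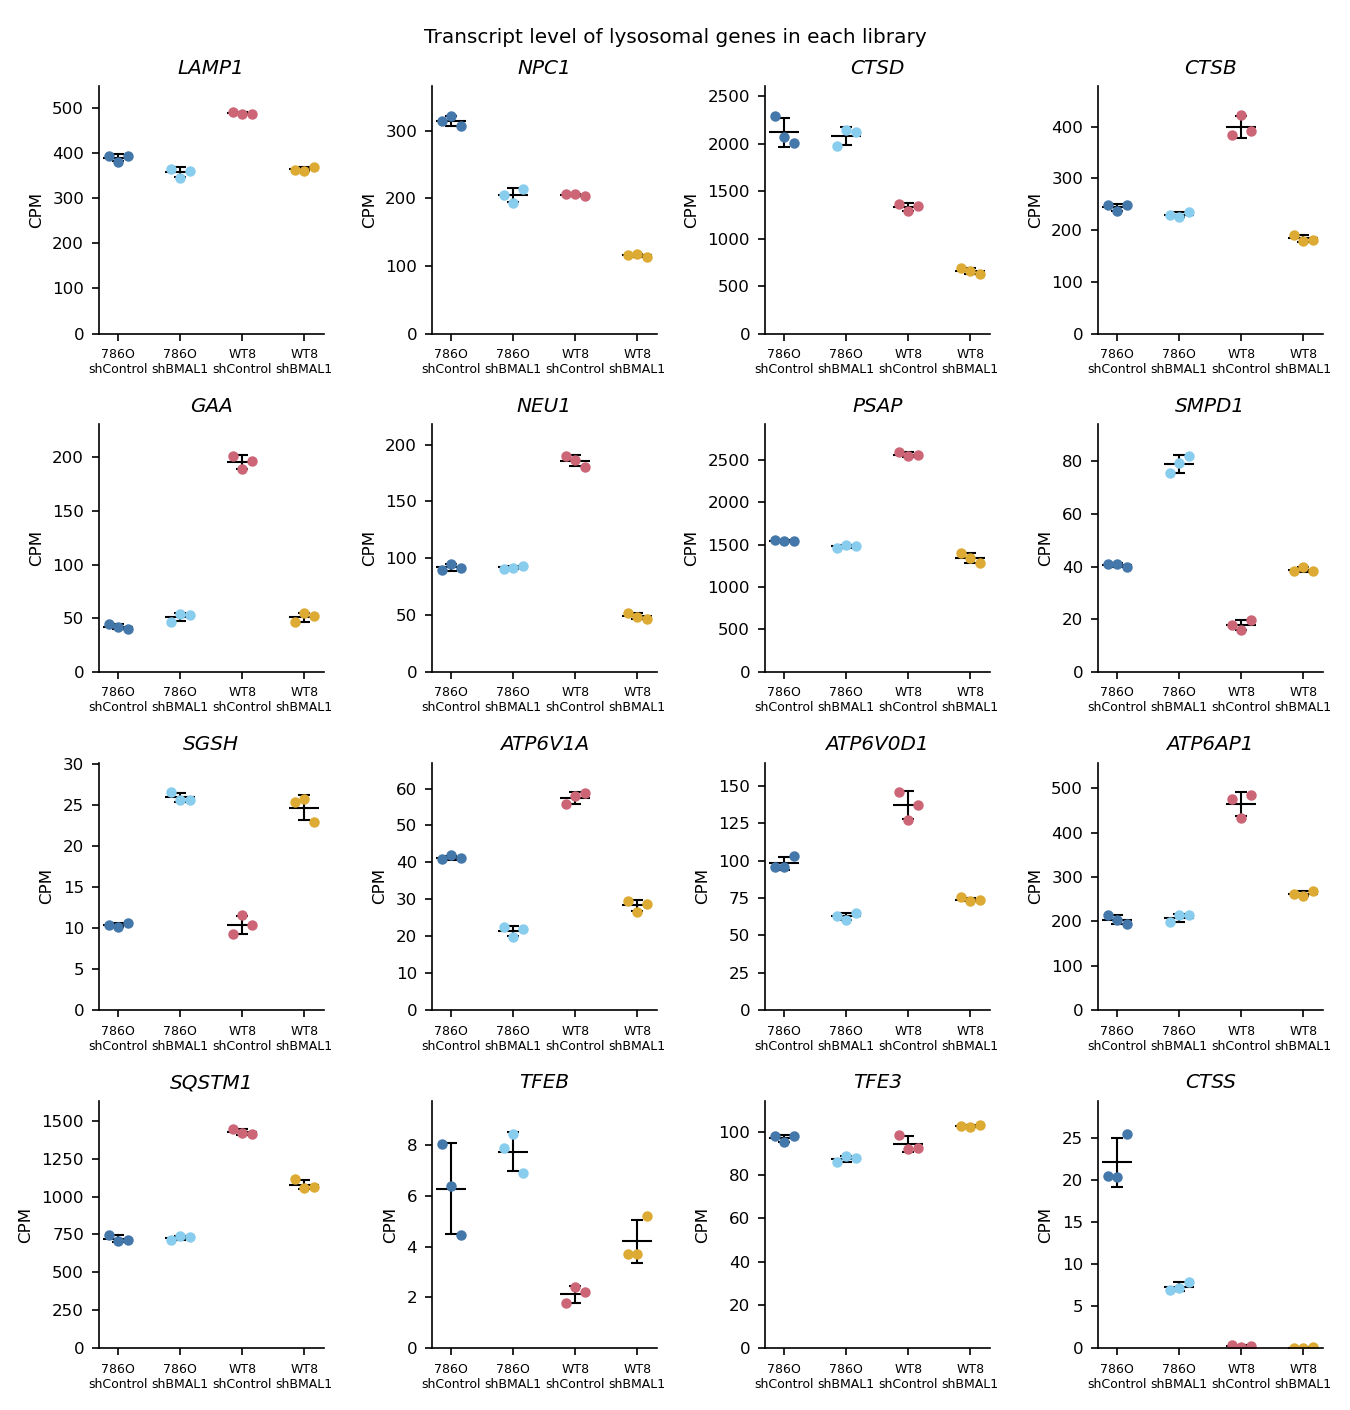
CPM (vertical axis, from 0) of 16 lysosomal genes in each of the 12 libraries (dots), with the mean and SD of each group of 3 (horizontal and vertical bars). GAA, NEU1, CTSB and PSAP stand high in WT8 shControl alone, SGSH and SMPD1 are high in the depleted group of each line, and ATP6V1A is low there.

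The 8 proton pump members divided by subunit. Those of the ATP-hydrolysing core of V1, ATP6V1A and ATP6V1B2, and ATP6V0D1, which joins V0 to V1, fell in both lines, whereas the V1 subunits ATP6V1C1, ATP6V1D and ATP6V1H did not fall in WT8. Some pump subunits outside the members, of V0 and of V1 beyond that core, were also lower in both lines. The division is thus one of the members alone. ATP6V1A (chr3:113465617-113530903, plus strand) had 40.9, 41.9 and 41.2 CPM in 786O shControl and 22.4, 19.9 and 22.1 in 786O shBMAL1, and in WT8 55.7, 57.99 and 58.7 with shControl and 29.6, 26.7 and 28.8 with shBMAL1. The falls of 1.93-fold (adjusted p = 3.37e-14) and 2.03-fold (adjusted p = 2.89e-16) had an interaction of -0.07 ± 0.09, adjusted p = 0.542. ATP6V0D1 had 95.6, 95.8 and 103 CPM in 786O shControl, 63.2, 60.1 and 64.9 in 786O shBMAL1, and in WT8 146, 128 and 138 with shControl and 75.4, 73.1 and 73.5 with shBMAL1, 1.57-fold and 1.85-fold lower in the depleted groups with no overlap. ATP6V1B2 fell by 1.44-fold and 1.40-fold and its interaction was not called (0.04 ± 0.06, adjusted p = 0.636). ATP6V1H, a regulatory subunit of V1, had 122, 119 and 122 CPM in 786O shControl and 104, 98.5 and 105 in 786O shBMAL1, and in WT8 145, 149 and 149 with shControl and 158, 153 and 163 with shBMAL1. It was lower in 786O (-0.24 ± 0.04, adjusted p = 4.09e-05) and higher in WT8 (0.10 ± 0.04, adjusted p = 0.0439), an interaction of 0.34 ± 0.06, adjusted p = 2.39e-05. The call in WT8 was lost without WT8 shControl replicate 1 or WT8 shBMAL1 replicate 3, at 0.08 in both.

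ATP6AP1, an accessory subunit that helps assemble the pump, had 214, 203 and 194 CPM in 786O shControl and 198, 214 and 214 in 786O shBMAL1, with overlap (0.04 ± 0.05, adjusted p = 0.583). It was at 477, 434 and 486 in WT8 shControl and 261, 258 and 269.6 in WT8 shBMAL1, 1.77-fold lower (adjusted p = 1.5e-17). ATP6V0A1, a V0 subunit on the path of the protons, rose in 786O (0.24 ± 0.07) and fell in WT8 (-0.27 ± 0.07). ATP6V1C1 rose in WT8 (0.16 ± 0.05, adjusted p = 0.00334) and was not called in 786O (0.02 ± 0.05, adjusted p = 0.764). Its interaction of 0.14 ± 0.07, adjusted p = 0.0902 lost its call in 7 of the 12 fits that left out 1 library, at 0.12 to 0.15. ATP6V1D was lower in 786O (-0.16 ± 0.06, adjusted p = 0.0419, lost without 786O shControl replicate 3 or 786O shBMAL1 replicate 1, at -0.15 and -0.13) and not called in WT8 (0.10 ± 0.06, adjusted p = 0.155, called at 0.17 without WT8 shBMAL1 replicate 1). The WT8 difference was also called without mitochondrially encoded genes and with only the groups compared.

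Both transcription factors rose in WT8 and the autophagy receptor fell. TFEB (chr6:41651716-41703997, minus strand), a factor that switches on lysosomal genes, was scarce, at 8.02, 6.38 and 4.44 CPM in 786O shControl and 7.87, 8.43 and 6.90 in 786O shBMAL1. The first group was widely spread and the groups overlapped, and the change was not called (0.30 ± 0.16, adjusted p = 0.144). Without 786O shControl replicate 1, its highest library, the change was called at 0.51, with adjusted p between 0.0172 and 0.671 over the 12 fits that left out 1 library. It was also called with no filter on low counts, at 0.30. In WT8, TFEB rose from 1.77, 2.41 and 2.20 to 3.72, 3.72 and 5.19 CPM, 1.98-fold higher (adjusted p = 4.92e-05) with no overlap. The interaction of 0.69 ± 0.25, adjusted p = 0.0252 lost its call without that same 786O library, at 0.48. TFE3 (chrX:48886237-48900936, minus strand), its relative, had 97.8, 95.1 and 98.1 CPM in 786O shControl, 85.8, 88.8 and 87.7 in 786O shBMAL1, and in WT8 98.4, 91.9 and 92.2 with shControl and 102, 102 and 103 with shBMAL1. It was lower in 786O (-0.15 ± 0.05, adjusted p = 0.00844) and higher in WT8 (0.12 ± 0.05, adjusted p = 0.0197). SQSTM1 (chr5:179233398-179265078, plus strand), the autophagy receptor p62, had 749, 707 and 712 CPM in 786O shControl and 711, 738 and 732 in 786O shBMAL1, with overlap (0.01 ± 0.04, adjusted p = 0.903). It went from 1446, 1417 and 1409 CPM in WT8 shControl to 1114, 1058 and 1064 in WT8 shBMAL1, 1.32-fold lower (adjusted p = 6.2e-11). Of the exon length of SQSTM1, 55.7% overlaps MRNIP on the other strand, and whether strand was used in counting is not given in the sources used here. The next largest such overlaps among the members were those of CTSA (24.1%), HEXA (12.9%) and CTSD (7.3%).

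Summed over all 46 members, the level was 9594 ± 207 CPM in 786O shControl, 9255 ± 174 in 786O shBMAL1, and in WT8 12171 ± 132 with shControl and 8024 ± 183 with shBMAL1 (mean ± SD, n = 3). The WT8 shControl libraries lay highest and the WT8 shBMAL1 libraries lowest, with no overlap between those groups and the others. The protease sum was 3861 ± 171 CPM in 786O shControl, 3808 ± 121 in 786O shBMAL1, and in WT8 3851 ± 24.5 with shControl and 2555 ± 105 with shBMAL1, so only the last sum stood apart. Sums weigh the most abundant genes most and can hide opposed differences. Between the control groups 5 proteases were higher and 4 lower in WT8, with CTSZ among the higher and CTSD among the lower. The sum of the 8 pump members was highest in WT8 shControl at 1229 ± 25.5 CPM, against 905 ± 13.8 in WT8 shBMAL1, 746 ± 7.23 in 786O shControl and 637 ± 13.2 in 786O shBMAL1. The 17 other pump subunits listed below went the other way between the controls, at 1136 ± 16.5 CPM in 786O shControl and 1002 ± 24.0 in WT8 shControl.

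**Figure D3:**
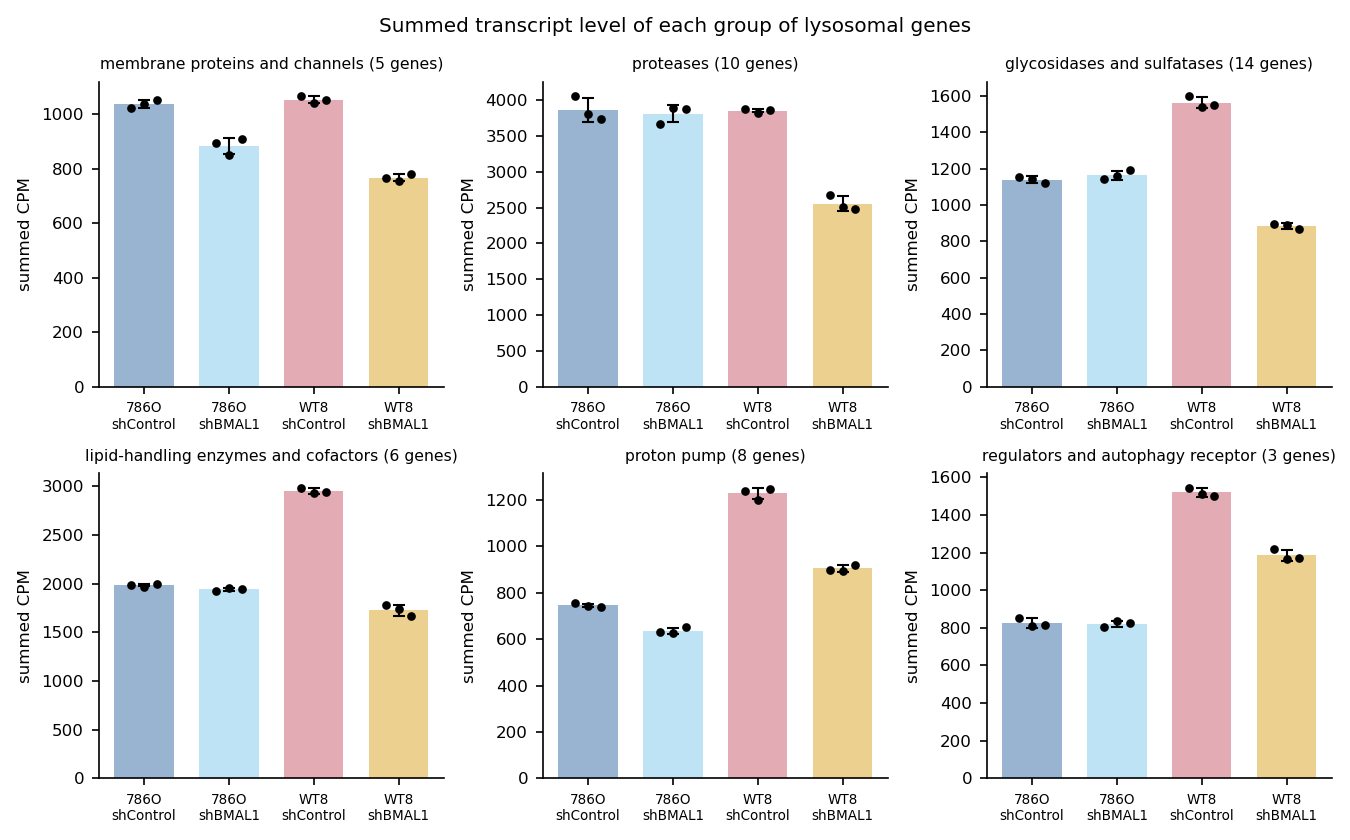
Summed CPM (vertical axis, from 0) of the 6 groups of lysosomal genes by role in the 4 groups of cells, as mean (bars), SD (error bars) and single libraries (dots). The sums of glycosidases and sulfatases, lipid-handling genes, the 8 proton pump members, and regulators with the autophagy receptor are highest in WT8 shControl. The protease sum is lowest in WT8 shBMAL1. SQSTM1 makes up most of the sum of regulators and autophagy receptor, whereas TFEB was lower in WT8 shControl than in 786O shControl and TFE3 was not called.

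Between the control groups, which asked how the lines differ before depletion, 29 members were higher in WT8 shControl than in 786O shControl, 13 were lower and 4 were not called. The 8 pump subunits among the members were all higher, and glycosidases and sulfatases were higher for 9 of 14. Of the 14 other pump subunits tested, described below, 5 were higher and 8 lower, with a median of -0.21. Called members made up 91.3% against 79.5% of all genes tested, higher calls 63.0% against 39.3% and lower calls 28.3% against 40.1%. The median log2 difference was 0.33, beside 0.00 for all genes. With a difference over 1.5-fold, 23 of the 46 members were called (12 higher, 11 lower), a share near the 49.4% of genes. This comparison shares its 786O shControl libraries with the depletion in 786O and its WT8 shControl libraries with the depletion in WT8. The interaction uses both sets as well. A high WT8 shControl value thus enters as a higher line difference, as a fall with shBMAL1 in WT8 and as a negative interaction. No relation between these comparisons was therefore computed.

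By the values given above, GAA was 4.64-fold higher in WT8 shControl than in 786O shControl (adjusted p = 2.1e-27), NEU1 2.02-fold higher (adjusted p = 2.9e-20) and ATP6AP1 2.29-fold higher (adjusted p = 1.63e-22). ARSA rose from 24.6, 23.2 and 24.97 CPM in 786O shControl to 62.7, 59.99 and 64.7 in WT8 shControl, 2.57-fold (adjusted p = 2.07e-20). PSAP, CTSB and SQSTM1 were higher by 1.66-fold, 1.63-fold and 1.97-fold. In the other direction, CTSS was -6.16 on the log2 scale (adjusted p = 4.27e-25), with 7 to 14 counts per library in WT8 shControl against 702 to 894 in 786O shControl. TFEB was 2.95-fold lower (adjusted p = 9.77e-09), IDUA 2.35-fold lower (adjusted p = 8.46e-13), SMPD1 2.28-fold lower (adjusted p = 1.07e-17) and CTSD 1.59-fold lower (adjusted p = 4.94e-15). LAMP1 and ATP6V1H were higher (0.33 ± 0.04 and 0.29 ± 0.04), while TFE3 and SGSH were not called (-0.04 ± 0.05, adjusted p = 0.407 and 0.00 ± 0.09, adjusted p = 0.991). NPC2 was lower by a small amount (-0.10 ± 0.05, adjusted p = 0.0508) in overlapping groups, and the call was lost without 786O shControl replicate 3 or WT8 shControl replicate 2 or 3, at -0.08 in each, and also with DESeq2 size factors and with only the groups compared.

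**Figure D4:**
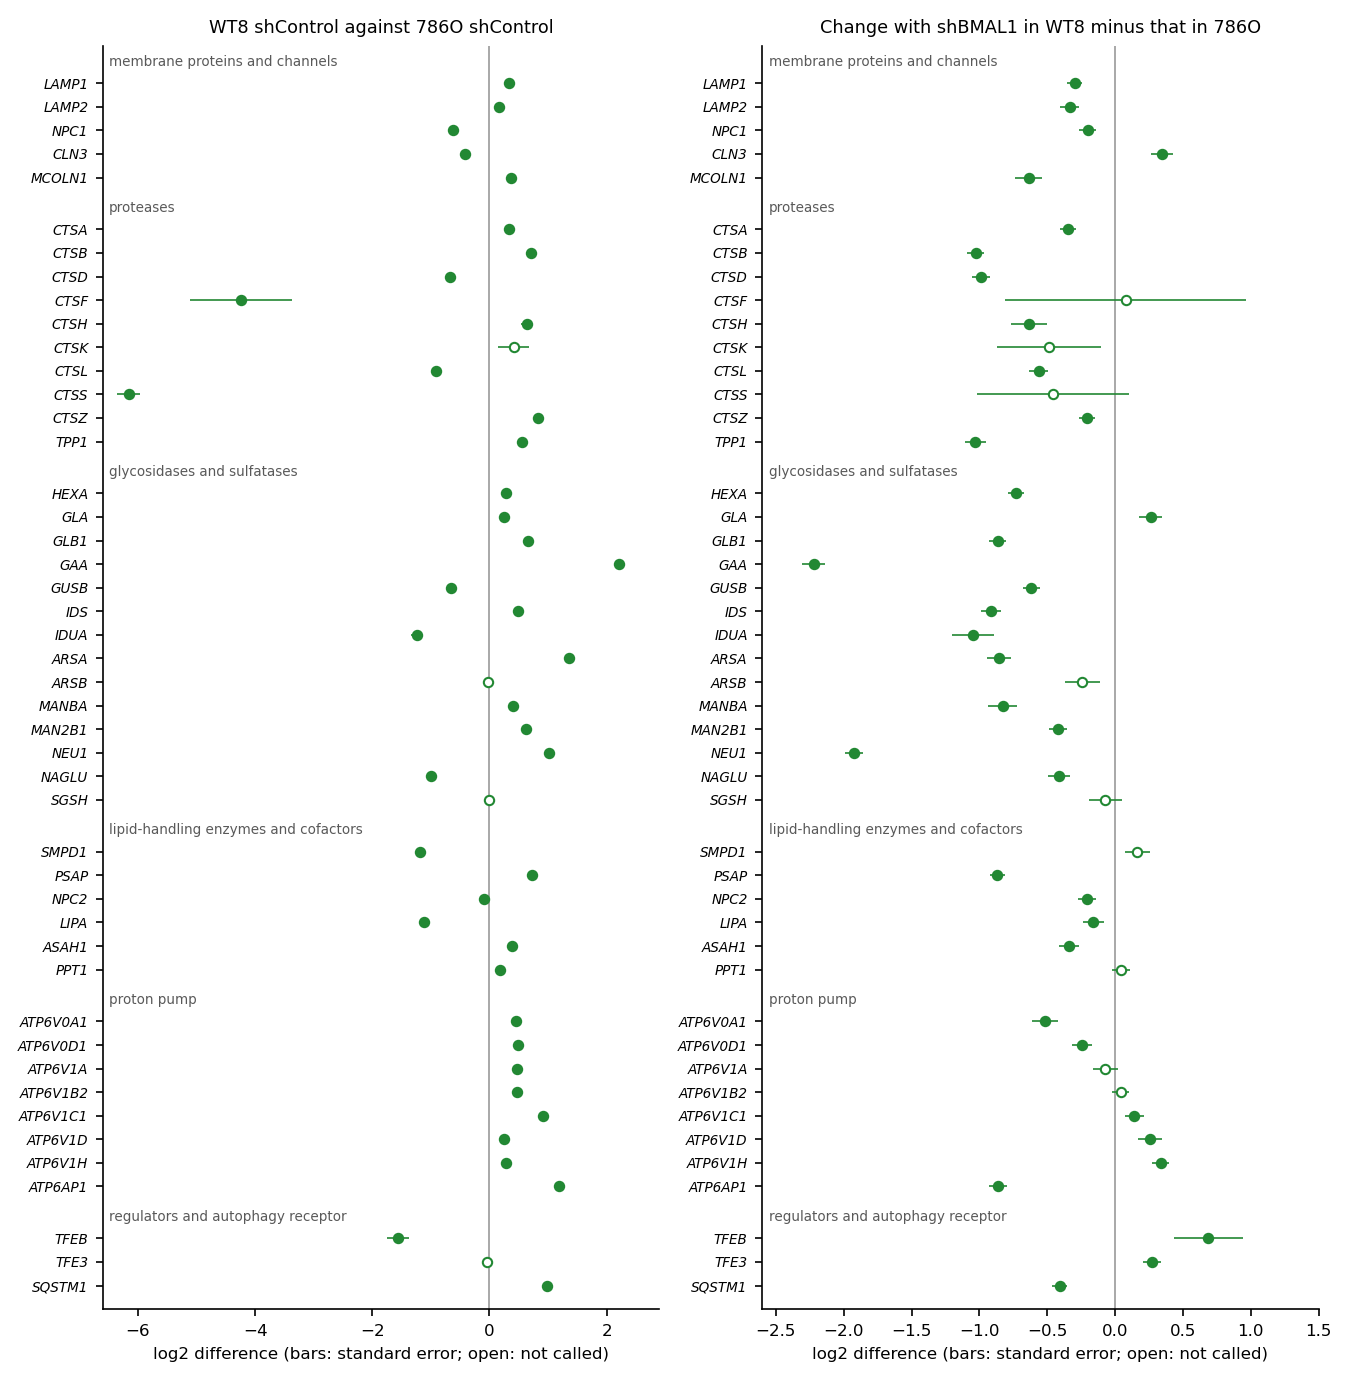
Log2 difference (± SE, open symbols not called) of each of the 46 lysosomal genes between WT8 shControl and 786O shControl (left) and between the change with shBMAL1 in WT8 and that in 786O (right). On the left 29 members lie above 0 and 13 below among those called, and on the right 7 above and 30 below. Both panels use the shControl libraries, with opposite signs.

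The members whose promoters hold CACGTG were described by counts alone. Of those 9, 7 were lower and 1 higher with shBMAL1 in WT8, with a median log2 change of -0.71, and of the 22 members whose promoter was read and lacks it, 16 were lower and 5 higher, with a median of -0.41, beside 36.9% of all genes lower and 32.9% higher. In 786O, 2 of the 9 were lower and 1 higher (median 0.00) and 9 of the 22 lower and 6 higher (median -0.02), beside 24.4% and 24.5% of all genes. A match is a run of letters and not a measured binding site.

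A wider list of 96 other lysosomal, sorting and autophagy genes, of which 90 had enough counts, moved in the same comparisons as follows. In WT8, 47 were lower (52.2% of those tested, against 36.9% of all genes) and 21 higher (23.3% against 32.9%) with shBMAL1, with a median of -0.24. In 786O 35 were lower (38.9% against 24.4%) and 24 higher (26.7% against 24.5%), with a median of -0.06. Between the control groups, 36 were higher in WT8 (40% against 39.3%) and 41 lower (45.6% against 40.1%), with a median of -0.04. The excess of higher calls among the members was thus not seen in this list. The interaction was negative for 41 (45.6% against 28.6%) and positive for 18 (20% against 27.4%). Its median was -0.16, beside -0.38 for the members. The smaller lists that follow are read against the same shares of all genes. Of the 24 other hydrolases and cofactors tested, 16 were lower and 3 higher in WT8, while 9 were lower and 7 higher in 786O. CTSO, a cysteine protease, fell from 6.33, 5.72 and 5.49 to 1.73, 2.11 and 1.34 CPM in WT8 (-1.76 ± 0.17, adjusted p = 2.72e-11) and had overlapping values in 786O (0.04 ± 0.16, adjusted p = 0.873). ACP5, an acid phosphatase, had 13 to 34 counts per WT8 library with shControl and 0 to 9 with shBMAL1 (-2.48 ± 0.57, adjusted p = 0.00039). ARSG, a sulfatase, fell in 786O (-0.80 ± 0.17, adjusted p = 0.000222). FUCA1, the alpha-fucosidase, rose from 48.9, 45.2 and 46.4 to 59.3, 60.8 and 58.3 CPM in 786O and fell from 48.5, 52.3 and 51.4 to 19.3, 21.9 and 18.8 in WT8 (interaction -1.69 ± 0.09, adjusted p = 4.11e-18). Of the 16 other membrane proteins, 9 were lower and 2 higher in WT8. OSTM1, the partner of the chloride transporter CLCN7, fell in both lines, from 95.1, 92.6 and 95 to 19.9, 23.1 and 21.3 CPM in 786O and from 119.9, 114 and 114 to 34.2, 35.2 and 34.1 in WT8. Those groups did not overlap, and the falls were 4.40-fold (adjusted p = 2.51e-25) and 3.37-fold (adjusted p = 2.19e-25). SLC17A5, the sialic acid exporter, rose in both, by 1.85-fold (adjusted p = 8.86e-11) and 2.18-fold (adjusted p = 5.74e-14).

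Of the 14 other pump subunits tested, 7 were lower and 4 higher in 786O, and 6 lower and 4 higher in WT8, where 42.9% lower and 28.6% higher lay near the shares of all genes. In WT8 shControl the V0 subunit ATP6V0A4 was 7.66-fold higher than in 786O shControl and the V0 subunit ATP6V0E2 3.12-fold lower. Of the 6 genes of the sorting of new hydrolases to the lysosome, mostly by mannose 6-phosphate, 3 were lower in each line and 1 in 786O and 2 in WT8 were higher, with the sorting receptor SORT1 at -0.74 ± 0.06 in 786O. Of the 16 genes of MiT factors and nutrient sensing, 6 were higher and 4 lower in 786O, and 6 higher and 6 lower in WT8 (37.5% in each direction). RRAGB, a Rag GTPase, was 3.22-fold higher in WT8 shControl than in 786O shControl, and MTOR, the kinase of nutrient signalling, had a positive interaction (0.58 ± 0.07, adjusted p = 1.71e-08). MITF, a relative of TFEB, rose from 16.9, 17.7 and 18.4 to 30.9, 29.7 and 29.9 CPM in 786O and from 9.46, 7.40 and 8.48 to 12.7, 12.5 and 13.8 in WT8 (1.71-fold and 1.53-fold). Of 14 autophagy genes, 7 were lower in each line, with 2 higher in 786O and 4 in WT8. GABARAPL1, which coats autophagosomes, moved in opposed directions, from 19.4, 20.7 and 23.3 to 38.2, 34.2 and 33.7 CPM in 786O and from 108, 99.7 and 99.8 to 59.5, 53.9 and 56.5 in WT8 (interaction -1.59 ± 0.09, adjusted p = 5.9e-17). The autophagy kinase ULK1 was 2.72-fold lower in WT8 shControl than in 786O shControl, and it and the autophagy receptor CALCOCO2 had positive interactions (0.58 ± 0.11 and 0.91 ± 0.10).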

How the data were processed

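RNA of 12 cell cultures was sequenced as stranded mRNA libraries. By the methods of the study, the authors aligned read pairs to GRCh37 in SeqMan NGen and exported counts from ArrayStar, whereas the submitters' processing notes name hg38, STAR and DESeq2. Annotation, strand use and handling of multiple alignments are not given in the sources used here. The deposited estimated counts (38074 lines, 38021 names) held 0.028 in place of 0 in 46.95% of values. That value was set to 0, lines of a name were summed and values rounded. After rounding, 14891 values were 2 and 11390 were 1, so mates may have been counted separately and counts may exceed fragments.

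Groups followed the sample titles. Genes kept by filterByExpr (16838) were scaled by TMM and fitted with a mean per group in edgeR 4.0.16 (R 4.3.3, robust quasi-likelihood F test, Benjamini-Hochberg adjustment, called under 0.1), tested on simulated data first. SE was taken as the absolute log2 change over the root of its F statistic. CPM and RPKM were computed here with TMM factors and canonical exon lengths of GENCODE 44. Alternatives were DESeq2 1.42.0, its size factors, no filter, a fold over 1.5, adjusted p under 0.05, a replicate block, only the groups compared, no mitochondrial genes, and leaving out each library. The members and lists were chosen with earlier results of these data known. Values per library were printed for the 4 called members with the largest rise and fall in each comparison, with a mean of at least 50 counts, and for 8 fixed members, LAMP1, CTSD, CTSB, PSAP, ATP6V1H, TFEB, TFE3 and SQSTM1. Of the other lysosomal genes, the 3 with the largest rise and fall in each comparison were named, except 1 that is not reported here. All other members may be named with their changes. Of 162 listed genes, 159 matched GENCODE names on GRCh37. SEs reflect the spread between replicates in the fit and SDs the spread of the 3 libraries of a group. The floor of 3 counts covers counting error only.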

Additional observations from a re-analysis of the deposited data

Results flagged for a closer look

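For 37 of the 46 lysosomal genes the change with shBMAL1 differed between WT8 and 786O by the interaction test of edgeR. The values below are the log2 change in WT8 minus that in 786O, and no explanation for them was tested. GAA (-2.22) and NEU1 (-1.92) had the most negative values. Other glycosidases and sulfatases with negative values were IDUA (-1.05), IDS (-0.92), GLB1 (-0.87), ARSA (-0.86), MANBA (-0.83), HEXA (-0.73), GUSB (-0.62), MAN2B1 (-0.42) and NAGLU (-0.41), and GLA was positive (0.26). Among proteases TPP1 (-1.03), CTSB (-1.03), CTSD (-0.99), CTSH (-0.64), CTSL (-0.56), CTSA (-0.35) and CTSZ (-0.21) were negative. Lipid-handling genes were negative at PSAP (-0.87), ASAH1 (-0.34), NPC2 (-0.20) and LIPA (-0.16). Of membrane proteins MCOLN1 (-0.64), LAMP2 (-0.34), LAMP1 (-0.30) and NPC1 (-0.20) were negative and CLN3 (0.35) positive. Pump subunits were split, with ATP6AP1 (-0.86), ATP6V0A1 (-0.51) and ATP6V0D1 (-0.24) negative and ATP6V1C1 (0.14), ATP6V1D (0.26) and ATP6V1H (0.34) positive. SQSTM1 was negative (-0.41), and TFE3 (0.27) and TFEB (0.69) were positive.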

How the results depend on the processing

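Over the alternatives, no member was called in both fits with opposite signs. Requiring a fold change over 1.5 left 6, 21, 23 and 17 members in 786O, WT8, the line comparison and the interaction. Leaving out each library in turn gave 24 to 28, 42 to 44, 41 to 43 and 35 to 37 called members and medians of -0.0380 to -0.0192, -0.4298 to -0.4138, 0.2997 to 0.3364 and -0.4063 to -0.3267. The WT8 median was -0.4083 with no filter on low counts, -0.3909 without mitochondrially encoded genes and -0.3936 with only the groups compared, where 44 members had enough counts. The line median was 0.3434 with DESeq2, 0.3482 with its size factors, 0.3155 with no filter, 0.3445 without mitochondrial genes and 0.3444 with only the groups compared. These medians kept their sign, and the cause of their shifts was not tested. The median interaction of all genes was -0.12 with DESeq2, which took every gene with a count, and -0.03 with edgeR over the 16838 genes kept. With no filter on low counts edgeR gave -0.09. Over the fits that left out 1 library, CTSD in 786O ran from -0.068 to 0.0285 and SQSTM1 in 786O from -0.0124 to 0.0295. CTSD changed sign without 786O shControl replicate 1 (0.0285) or 786O shBMAL1 replicate 1 (0.0079), and SQSTM1 without 786O shControl replicates 2 or 3 (-0.0124, -0.0059) or 786O shBMAL1 replicates 2 or 3 (-0.0078, -0.0014), and neither was called in any of these. Replicate numbers did not pair the samples: the 18 same-numbered pairs had correlations of deviations from -0.046 to 0.048, and the best partner had the same number in 6 of 36 cases. With a replicate block, 27, 44, 42 and 36 members were called, with CTSB in 786O and ATP6V1C1 in the interaction lost. CTSB and GLB1 in 786O were also lost with DESeq2, with its size factors and without mitochondrial genes, and CTSB with no filter. In the interaction, ATP6V1C1 was lost with DESeq2 and with its size factors, and LIPA without mitochondrial genes and with no filter. The smallest counts, those of CTSF, CTSS and CTSK, limit what can be said of these members.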
